A study of Mus musculus with 6 samples.

Results

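Back-spliced reads of 10 genes known from leukocytes were examined in the aortas of apolipoprotein E-deficient (ApoE-/-) male mice on a C57BL/6 background. The genes were Ptprc, Mertk, Lyn, Syk, Fyb, Dock2, Dock8, Elmo1, Ikzf1 and Runx1, and every entry of the deposited circRNA table whose host gene carried one of these names was taken. The table held 29 such entries among 10023, from 9 of the 10 genes, and Lyn had none. All mice lacked ApoE and were grouped by diet: a high-fat diet (HFD) with added cholesterol and cholic acid, or a chow diet, which the sample labels call a normal diet, was given for 12 weeks from 6 weeks of age. The labels number 3 aortas per diet, and whether an aorta came from 1 mouse is not given in the sources used here. RNA of aorta tissue was sequenced, so that the cell types of the wall were measured together. Reads are given below in the order of replicates 1, 2 and 3.

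Leukocytes enter the arterial wall as an atherosclerotic plaque grows, macrophages and T cells among them. Ptprc encodes CD45, the phosphatase that marks nearly all nucleated blood cells, and the other genes encode receptors, kinases, adaptors, exchange factors and transcription factors used by these cells. Several are not confined to blood cells: Mertk, Elmo1 and Runx1 are also transcribed in other tissues. A circRNA forms when the end of an exon is spliced back to the start of the same or an upstream exon, and its reads are those spanning the joined ends. Each circle is counted at 1 junction, so that levels were not divided by length.

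The 29 entries collected 82 back-spliced reads, 0.219% of the 37393 reads in the table. HFD replicates 1, 2 and 3 had 7, 22 and 9 of these reads, out of 4694, 5621 and 4875 back-spliced reads in all. Chow diet replicates 1, 2 and 3 had 13, 16 and 15, out of 7585, 7142 and 7476. HFD replicate 2 was the highest aorta and HFD replicate 1 the lowest, and all chow diet aortas lay between them.

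As a share of all back-spliced reads, the genes took 0.149%, 0.391% and 0.185% in the HFD aortas, with exact Clopper-Pearson 95% intervals of 0.0600 to 0.307%, 0.245 to 0.592% and 0.0845 to 0.350%. In the chow diet aortas the shares were 0.171%, 0.224% and 0.201%, with intervals of 0.0913 to 0.293%, 0.128 to 0.364% and 0.112 to 0.331%. These intervals cover counting error only, and the intervals of all 6 aortas overlap. The mean share was 0.242 ± 0.131% with the HFD against 0.199 ± 0.0264% with the chow diet (SD, n = 3 per diet).

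Normalized reads are counts scaled by the effective library size that TMM gives, for the reads summed per host gene or, for single circRNAs, per entry. Summed over the 10 genes they came to 13.9 ± 7.80 with the HFD against 13.2 ± 1.80 with the chow diet (SD, n = 3 per diet), a log2 ratio of 0.07. Without HFD replicate 2, which held 57.9% of the HFD reads of these genes, the log2 ratio was -0.40. Without Mertk, the gene with the most reads, the normalized sums were 4.87, 12.5 and 4.58 with the HFD against 6.24, 5.68 and 1.72 with the chow diet, and the diets overlapped. No test was run on this sum, because the genes were chosen with earlier results of these data known. In whole aortas, fewer cells of a type and less circular RNA per cell cannot be told apart. The linear RNA of these genes was not examined, so back-spliced reads do not give the expression of a gene.

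**Figure D1:**
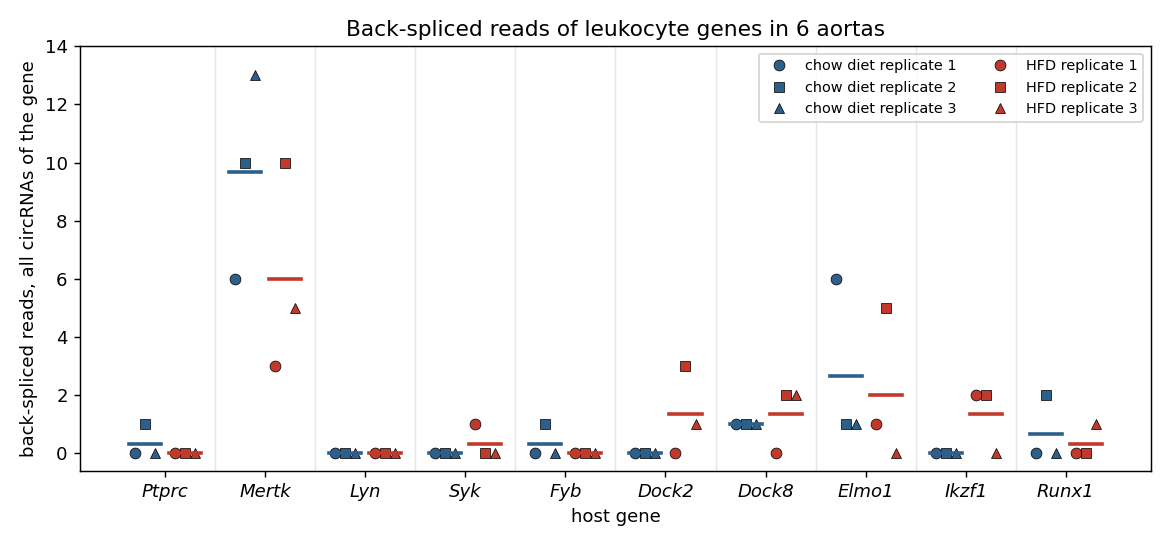
Back-spliced reads (vertical axis, raw counts summed over all circRNAs of a gene) of the 10 leukocyte genes (horizontal axis) in 3 chow diet and 3 HFD aortas. Each point is 1 aorta and each line the mean of a diet. Mertk holds 47 of the 82 reads, and only Mertk and Elmo1 have an aorta above 3 reads.

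Among the receptors, Ptprc had a single read. It came from circRNA4146, exons 2 to 5 of the gene on the reverse strand of chromosome 1 (138107775 to 138113779, GRCm38), in chow diet replicate 2. The other 5 aortas had none. CD45 is the defining marker of leukocytes, and with a single read in the circRNA table the genes are grouped here by what they are known for and not by a measured presence of these cells.

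Mertk encodes a receptor tyrosine kinase with which macrophages bind and engulf dying cells. It had 3, 10 and 5 reads with the HFD against 6, 10 and 13 with the chow diet, from 12 entries. The diets overlapped, with HFD replicate 2 level with chow diet replicate 2. Normalized reads were 6.59 ± 3.45 with the HFD against 8.66 ± 2.99 with the chow diet (SD, n = 3 per diet). The log2 fold change of HFD against chow diet was -0.37 (standard error 0.62, 95% interval -1.59 to 0.86, edgeR's quasi-likelihood test, adjusted p = 0.95), and no difference was detectable at this depth. Without HFD replicate 1 or chow diet replicate 3 the log2 fold change was 0.0051 or 0.0036. Mertk held 57.3% of the reads of the 10 genes and ranked 123rd in reads and 35th in entries among the 3981 host genes of the table.

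The circRNA of Mertk with the most reads was mmu_circ_0009326, made of exons 3 and 4 on the forward strand of chromosome 2 (128736563 to 128738369). It had 2, 3 and 1 reads with the HFD against 4, 3 and 6 with the chow diet, and it was the only entry of the 29 seen in all 6 aortas. The diets met at 3 reads in raw counts, and overlapped after normalization as well. Its normalized reads were 2.19 ± 0.92 and 3.88 ± 1.25 (SD, n = 3 per diet). The log2 fold change was -0.78 (standard error 1.15, 95% interval -3.03 to 1.48, edgeR, adjusted p = 0.95).

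The second circRNA of Mertk was circRNA4044, exons 10 to 13 (128776286 to 128779872), which had 0, 4 and 0 reads with the HFD against 0, 2 and 3 with the chow diet. It is 1 of 4 circles that begin at exon 10 and end at exons 13, 15, 17 or 18, which together had 14 reads, 7 on each diet. A group of 3 circles begins at exon 2 and ends at exons 2, 4 or 6, and these had 3 reads with the HFD against 4 with the chow diet. Only 1 intronic circRNA (ciRNA) belonged to the 10 genes: ciRNA298 begins at the first base of intron 8 of Mertk, ends 34 bases before exon 9, and had 1 read in chow diet replicate 2. Of the 12 Mertk entries, 6 were seen on the chow diet alone and 1 on the HFD alone, and these 7 held 9 reads.

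**Figure D2:**
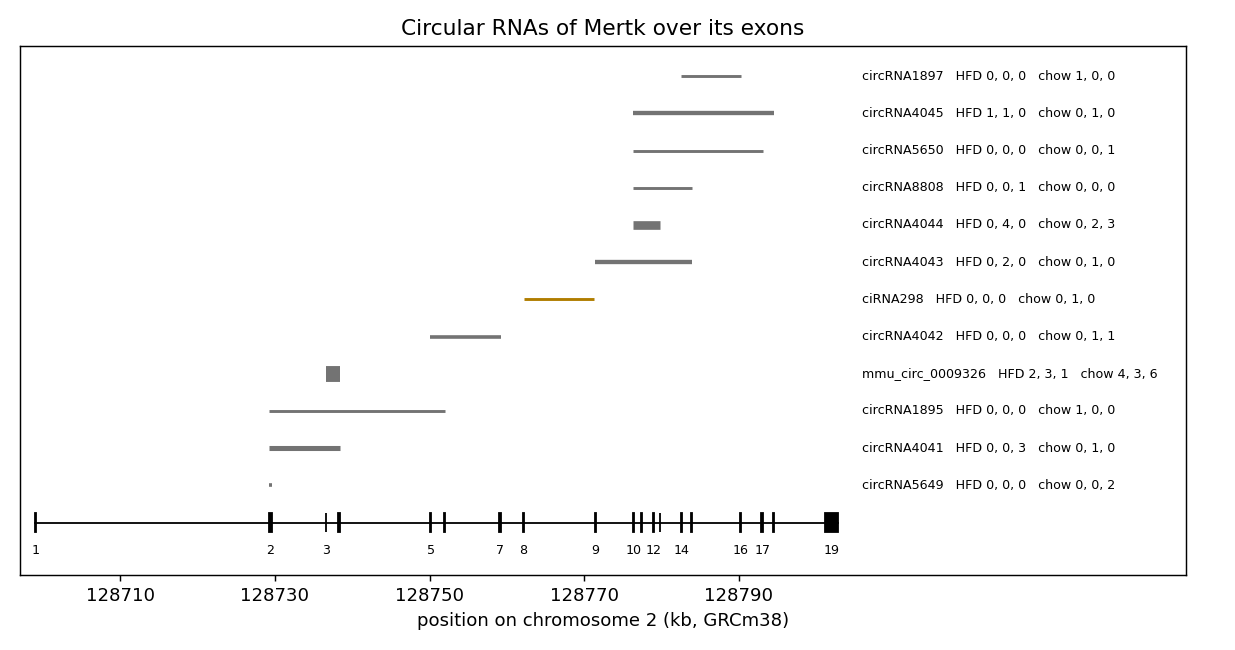
The 12 circRNAs of Mertk over the exons of its 19-exon transcript in GENCODE vM21 (horizontal axis, position on chromosome 2 in kb, GRCm38; black boxes, exons with some of their numbers). Grey bars are exonic circRNAs and the ochre bar is the ciRNA, thicker bars have more reads, and the numbers beside each are the reads of replicates 1, 2 and 3. The exon 3 to 4 circle has 19 of the 47 reads, and 4 bars share the start of exon 10.

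The kinases and the adaptor that carry signals from immune receptors left almost no reads. Lyn, a SRC-family kinase of B cells and myeloid cells, had 0 of 15190 HFD reads and 0 of 22203 chow diet reads, which allows a share of up to 0.0197% and 0.0135% with 3 reads as the limit of a count of 0. Syk, the kinase that binds activated immune receptors, had 1 read in HFD replicate 1, from circRNA6165 (exons 8 to 10). Fyb, an adaptor of T cells and platelets, had 1 read in chow diet replicate 2, from circRNA3292 (exons 8 to 15). None of the 3 genes had reads in a second aorta, and none passed the filter for a test.

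Dock2, Dock8 and Elmo1 act on the small GTPases that drive migration and engulfment. DOCK2 activates Rac in leukocytes, DOCK8 activates CDC42, and ELMO1 is a partner that some DOCK proteins need for full activity. Dock2 had 0, 3 and 1 reads with the HFD against none with the chow diet. The 3 reads of HFD replicate 2 came from circRNA7239 (exons 45 and 46, chromosome 11, 34238150 to 34239705) and the read of HFD replicate 3 from circRNA8259 (exons 23 to 27), so that no single Dock2 circle was seen in a second aorta. Dock8 had 0, 2 and 2 reads with the HFD against 1, 1 and 1 with the chow diet. Its circRNA3426 (exons 3 and 4, chromosome 19, 25061108 to 25065459) held 6 of these 7 reads and was seen in 4 aortas, 2 of each diet.

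Elmo1 had 1, 5 and 0 reads with the HFD against 6, 1 and 1 with the chow diet, from 6 entries. The highest aorta of either diet stood apart from the other two. Normalized reads were 2.14 ± 2.72 with the HFD against 2.38 ± 2.57 with the chow diet (SD, n = 3 per diet), with a log2 fold change of -0.11 (standard error 1.22, 95% interval -2.51 to 2.28, edgeR, adjusted p = 0.96). It lay above 0 with DESeq2 and with scaling by total reads. Without chow diet replicate 1 it was 1.17 and without HFD replicate 2 it was -1.76.

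The reads of Elmo1 came from separate parts of the gene. There were 3 circles that end at exon 13 and begin at exon 2, 8 or 9, with 3 reads on the HFD, all in replicate 2, and 1 on the chow diet. The circle of exons 17 and 18 was listed as 2 entries whose starts on chromosome 13 differ by 1 base. mmu_circ_0004525 (20564424 to 20572457) has the annotated first base of exon 17 as its start. It had 1, 2 and 0 reads with the HFD against 0, 0 and 1 with the chow diet. circRNA2751 (20564425 to 20572457) had 5 reads, all in chow diet replicate 1. Summed, the circle had 1, 2 and 0 reads with the HFD against 5, 0 and 1 with the chow diet, so that 5 of the 6 reads that made chow diet replicate 1 the highest Elmo1 aorta were listed under the shifted start.

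Ikzf1 and Runx1 encode transcription factors of blood cell development. Ikzf1, or Ikaros, had 2, 2 and 0 reads with the HFD against none with the chow diet. The reads of HFD replicate 1 came from circRNA6239 (exons 5 to 7, chromosome 11, 11748311 to 11758317) and those of HFD replicate 2 from mmu_circ_0002776 (11700205 to 11707904). Runx1 had 0, 0 and 1 reads with the HFD against 0, 2 and 0 with the chow diet. Neither gene had reads in more than 2 aortas.

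The sequences across the back-splice are given for the circles that hold most of the reads described above, and for both Elmo1 entries, whose starts differ by 1 base. Each runs 5′ to 3′ on the transcribed strand, with the last 20 bases of the circle's last exon in lower case and the first 20 bases of its first exon in capitals. They were joined from the transcripts of GENCODE vM21 (GRCm38).
mmu_circ_0009326, Mertk exons 4 to 3, chr2:128736563-128738369, forward strand: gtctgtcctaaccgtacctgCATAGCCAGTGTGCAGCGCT
circRNA4044, Mertk exons 13 to 10, chr2:128776286-128779872, forward strand: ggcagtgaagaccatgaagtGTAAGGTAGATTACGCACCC
circRNA3426, Dock8 exons 4 to 3, chr19:25061108-25065459, forward strand: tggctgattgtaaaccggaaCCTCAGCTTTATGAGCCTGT
circRNA7239, Dock2 exons 46 to 45, chr11:34238150-34239705, reverse strand: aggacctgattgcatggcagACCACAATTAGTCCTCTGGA
mmu_circ_0004525, Elmo1 exons 18 to 17, chr13:20564424-20572457, forward strand: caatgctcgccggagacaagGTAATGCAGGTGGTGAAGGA
circRNA2751, the Elmo1 entry that starts 1 base later, chr13:20564425-20572457, forward strand: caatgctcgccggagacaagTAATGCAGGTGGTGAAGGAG
By their coordinates the Elmo1 entries share their end and differ in their start by 1 base.

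Joined from its annotated exons, the whole circle of mmu_circ_0009326 is 275 bases long. Of these, 101 are exon 3, in lower case, and 174 are exon 4, in capitals. All of it is coding sequence in the annotated transcript. It is shown because it is the only circle of the 10 genes found in every aorta.
mmu_circ_0009326: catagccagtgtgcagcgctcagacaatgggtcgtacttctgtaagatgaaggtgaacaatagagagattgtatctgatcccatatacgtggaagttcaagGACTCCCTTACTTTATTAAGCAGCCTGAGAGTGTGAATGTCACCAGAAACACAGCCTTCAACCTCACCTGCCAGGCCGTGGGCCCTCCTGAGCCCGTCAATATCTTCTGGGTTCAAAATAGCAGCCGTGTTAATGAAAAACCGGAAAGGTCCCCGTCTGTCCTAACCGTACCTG

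Most circles of these genes had both ends at annotated exon ends. The reads span the joined ends only, so the exons and lengths between them are those of the annotated isoform. Exon numbers are those of the isoform the table names, or for circRNA2751 those of its neighbouring entry. Of the 28 exonic entries, 27 had both ends at annotated exon ends, and the exception was circRNA2751. Their spliced length ran from 174 to 1159 bases with a median of 472, and they held a median of 3.5 exons, against 4 for all exonic entries. Of the 27 whose exons the table numbers, 6 began at exon 2 and none held exon 1. Of the 7896 such entries of all genes, 27.8% began at exon 2 and 0.0507% held exon 1. In 24 of the 28 every exon was coding in the isoform the table names. Names of a circRNA catalogue (mmu_circ) were carried by 5 of the 29 entries, or 17.2%, against 27.1% of the table.

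The entries were thinly read, with a median of 2 reads, as for all entries. A single aorta held all reads of 20 of the 29 entries, or 69.0%, against 74.4% of the table. On the HFD alone 8 entries were seen, on the chow diet alone 13, and on both diets 8. The HFD libraries were the shallower ones, and over all genes 33.4% of the entries were seen on the HFD alone and 47.3% on the chow diet alone. The number of these 29 entries with a read was 5, 10 and 6 with the HFD against 6, 13 and 7 with the chow diet.

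The diets were compared with edgeR's quasi-likelihood test over the whole table, at the criteria of the study (an absolute log2 fold change above 1 with an unadjusted p under 0.05). A test needed reads in at least 2 of the 6 aortas, which 9 of the 29 entries had. edgeR called 0 of the 9, and 0 had an unadjusted p under 0.05, against 4.06% called among 2564 entries. With reads summed per gene, 6 of the 9 genes were tested (Mertk, Elmo1, Dock8, Dock2, Ikzf1 and Runx1). edgeR called 0 of the 6, and 0 had an unadjusted p under 0.05, against 4.46% of 2240 host genes. DESeq2 and limma also called 0 at both levels. In none of the 6 were the normalized reads of the diets free of overlap, which was so for 9.55% of the host genes tested.

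The genes nearest the criteria were Ikzf1 (unadjusted p = 0.061) and Dock2 (unadjusted p = 0.063), each with an adjusted p = 0.67 in edgeR's test. Both passed the filter only through the HFD aortas and had at most 3 reads in any aorta, so no fold change is given. Dock2 met the criteria without HFD replicate 1 (edgeR, adjusted p = 0.75) and Ikzf1 without HFD replicate 3 (edgeR, adjusted p = 0.79), each time by leaving out the HFD aorta in which it had no read. Over 11 alternative fits, the adjusted p of either gene ran from 0.58 to 1.0.

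Other genes of blood cells were read from lists that overlap none of the 10 genes. Of 40 myeloid genes, 14 had reads and 7 were tested, and edgeR called 0, against 1.7% of the host genes called higher and 2.77% called lower on the HFD. The myeloid genes had 14, 22 and 14 reads with the HFD against 15, 15 and 10 with the chow diet. Their normalized reads were 17.1, 22.9 and 16.0 with the HFD against 13.4, 14.2 and 8.59 with the chow diet (means 18.7 ± 3.67 and 12.0 ± 3.03, SD, n = 3 per diet). After this scaling every HFD aorta lay above every chow diet aorta, while without Adgre1, the gene with the most reads, the diets overlapped. The median log2 fold change of the 7 tested was 0.40, beside -0.17 for all host genes tested. That median of all host genes was 0.02 when libraries were scaled by their total reads instead of TMM.

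Adgre1, which encodes the macrophage marker F4/80, was the most read of the myeloid genes. It had 5, 7 and 8 reads with the HFD against 12, 2 and 5 with the chow diet, and the diets overlapped (log2 fold change 0.40, standard error 0.67, edgeR, adjusted p = 0.95). Cd84, a receptor of the SLAM family on leukocytes, had 2, 7 and 3 reads with the HFD against 0, 4 and 0 with the chow diet (log2 fold change 1.76, standard error 1.16, edgeR, adjusted p = 0.67). It met the criteria with limma, and with edgeR once chow diet replicate 2 was left out, the only chow diet aorta with Cd84 reads. Among the genes that define macrophages, Cd68, Itgax, Mpeg1, Spi1 and Trem2 had no reads, Csf1r and Msr1 had 1 each, Itgam had 2, and Mrc1 had 7. Lyz2 had 2, 2 and 0 reads with the HFD against 0, 1 and 0 with the chow diet. Inpp5d went the other way, with 0, 1 and 0 reads with the HFD against 0, 3 and 0 with the chow diet. Of 30 lymphoid genes, 4 had reads (Lck, Themis, Blnk and Cd96), with 6 reads in all, and 0 were tested.

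Relatives and partners of the 10 genes gave few reads as well. Among 17 genes of the DOCK, ELMO and Rac group, 10 had reads and edgeR called 0 of the 8 tested. The most read was Dock1, with 17 reads, more than any of Dock2, Dock8 and Elmo1. Dock4 had 1, 1 and 6 reads with the HFD against 1, 1 and 0 with the chow diet. Of 18 kinases and adaptors of the SRC and SYK families, 7 had reads. Beside 4.46% of all host genes tested, 1 of the 4 tested here met the criteria. This was Evl, an actin regulator that binds FYB, with 0, 1 and 4 reads with the HFD against none with the chow diet (edgeR, adjusted p = 0.67). Evl passed the filter only through HFD aortas, and did not meet the criteria when no filter was used. Its HFD mean lay below 3 reads, so no fold change is given, and it met the criteria in 4 of 11 alternative fits (adjusted p between 0.58 and 1.0). It did not meet them when any single chow diet aorta was left out, and was not tested without HFD replicate 2 or 3.

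Engulfment receptors and their ligands other than Mertk had 19 reads. These were 4, 9 and 1 with the HFD against 0, 3 and 2 with the chow diet, and the diets overlapped after normalization. edgeR called 0 of the 2 tested, Itgav and Lrp1. Itgav had 0, 3 and 1 reads with the HFD against 0, 0 and 1 with the chow diet. Lrp1 had 0, 4 and 0 against 0, 3 and 0. Axl, a receptor of the same family as Mertk, had 4 reads in HFD replicate 1 and none elsewhere. Among the relatives of Ikzf1 and Runx1, 6 of 10 had reads and edgeR called 0 of 4. Runx2 had 0, 1 and 1 reads with the HFD against none with the chow diet. Runx1t1 had 0, 2 and 3 reads with the HFD against 0, 2 and 1 with the chow diet. Cbfa2t2 went the other way, with 0, 1 and 0 against 0, 1 and 2. Cbfb, whose protein pairs with RUNX1, had 2, 4 and 0 against 4, 2 and 0. In these lists, those of the myeloid genes and the DOCK group included, 0 tested genes other than Evl had an unadjusted p under 0.05 in edgeR's test, DESeq2 called 0, and limma called only Cd84.

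Smooth muscle is the main cell type of the aortic wall, and 8 of 18 genes that mark it had reads. Smooth muscle genes had 21, 26 and 14 reads with the HFD against 67, 48 and 72 with the chow diet, 248 in all, most of them (139) from Itga8. Normalized reads without Itga8 were 17.1, 12.5 and 9.17 with the HFD against 21.4, 18.9 and 26.6 with the chow diet, so that every HFD aorta still lay below every chow diet aorta. Itga8, an integrin subunit of smooth muscle, had 7, 14 and 6 reads with the HFD against 43, 28 and 41 with the chow diet, and was lower on the HFD (log2 fold change -1.71, standard error 0.40, edgeR, adjusted p = 0.0082). It met the criteria in all 15 alternative fits (adjusted p between 0.0091 and 0.44, and under 0.05 in 7 of the fits). It was the only 1 of the 5 smooth muscle genes tested that met the criteria, beside 4.46% of all host genes tested. Myocd, a coactivator that drives smooth muscle genes, had 11, 9 and 6 reads against 17, 16 and 21, with no overlap of the diets (log2 fold change -0.71, standard error 0.48, edgeR, adjusted p = 0.71). Acta2 and Myh11 had 6 and 9 reads in all, and Tagln, Cnn1 and Des had none. The part of smooth muscle in the values of the leukocyte genes was not tested.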

How the data were processed

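Per the study's methods, Cutadapt removed reads with adaptor sequence or bases of poor quality, TopHat-Fusion found back-splices among those left unmapped, and CIRCexplorer and CIRI assembled the circRNAs. Tool versions and the genome build are not given in the sources used here. The labels and the methods name RNase R for isolating circRNA, and the methods name depletion of ribosomal RNA for sequencing. Whether the sequenced libraries were treated with RNase R is not clear from these sources. The deposited counts are back-spliced reads per circRNA and aorta, and the deposited signal is SRPBM, the count divided by a library depth (57.7 to 73.7 M). The authors' fold changes, p-values and q-values were not used, and the mRNA libraries were not analysed here.

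Ensembl identifiers of host genes were replaced by symbols (1224 of 1224 matched). Circles were placed on GENCODE vM21 (GRCm38), whose exon ends their coordinates match. Counts, per entry and summed per host gene without intergenic entries, were scaled by TMM before edgeR 4.0.16 (R 4.3.3) was run, with Benjamini-Hochberg adjustment over all features tested. Standard errors were taken as the log2 fold change divided by the square root of F. Named circRNAs were those with at least 10 reads or reads in at least 4 aortas. Of each other list, up to 4 genes with the smallest p were to be named. Further circRNAs and listed genes were named after their values were seen. The genes and lists were chosen with earlier results of these data known. Alternatives were DESeq2 1.42.0, limma 3.58.1, other scalings and filters, the replicate block, summed neighbouring entries, no ciRNAs and each aorta left out. The fits were also tested on simulated data.

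The p-values of edgeR rest on the spread between the aortas of a diet, pooled over the features tested. They, and the standard errors and intervals given with them, do not measure the spread of a single gene over the 3 aortas of a diet. Counts of a diet's libraries varied beyond sampling noise, with chi-square values of 2.22 to 3.34 per degree of freedom. With 3 reads as the smallest number told from none, the floor was 0.0396% to 0.0639% of a library.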

Additional observations from a re-analysis of the deposited data

How the results depend on the processing

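edgeR's call of 0 leukocyte gene circRNAs stayed at 0 in all 15 alternatives. With reads summed per gene it was 0 in 13 of 15 and 1 in the other two, so that leaving out 1 aorta at a time gave from 0 to 1 (Dock2 without HFD replicate 1, Ikzf1 without HFD replicate 3). The log2 ratio of the reads summed over these genes was 0.07, 0.28 with library size alone, and from -0.40 to 0.43 with 1 aorta left out, lowest without HFD replicate 2. Elmo1, at a log2 fold change of -0.11, was 0.051 with DESeq2 and 0.068 with library size alone, and ran from -1.76 to 1.17 with 1 aorta left out. Mertk, at -0.37, ran from -0.78 to 0.0051 with 1 aorta left out. mmu_circ_0009326 ran from -1.16 to -0.44 over its 15 alternatives. The causes of these shifts were not tested.

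Under a replicate block, 0 of these genes and circRNAs were called by edgeR, Mertk was at -0.42 and Elmo1 at -0.30. Same-numbered aortas share only a number, and the deviations of the pairs from their group means correlated at -0.15, -0.17 and -0.06. No aorta correlated best with its own number.

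Against 100 host genes called in all (62.0% lower on the HFD), DESeq2 called 34, the filter of at least 10 reads 49, the block 41, and the fit without chow diet replicate 3 called 49. Against 104 entries called in all (68.3% lower), DESeq2 called 23 (47.8% lower), library size alone 83 (51.8% lower), the filter of at least 10 reads 49, the block 30, and the fits without HFD replicate 2, HFD replicate 3 or chow diet replicate 1 called 59, 58 and 57. For host genes, library size alone called 89, of which 47.2% were lower, and limma called 113, of which 78.8% were lower. Depth limits these values: 14 of the 29 entries, or 48.3%, rest on 1 read, as do 46.7% of all entries.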

Other observations

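Marker genes of the other cells of the wall were read in the same aortas. Of 18 endothelial genes, 8 had reads, 6, 5 and 14 with the HFD against 6, 10 and 13 with the chow diet, and edgeR called 0 of the 7 tested. Pecam1, an adhesion molecule of endothelium that leukocytes also carry, was the most read of them, with 16 reads. The 4 with the smallest p were split in direction. Vwf, which encodes von Willebrand factor, had no reads with the HFD against 0, 1 and 2 with the chow diet, and Prex2, a Rac exchange factor, had 1, 1 and 0 against 0, 5 and 5. The ETS factor gene Erg had 1, 1 and 0 reads with the HFD and none with the chow diet. Tek, the receptor of the angiopoietins, had 1, 1 and 2 reads with the HFD against 0, 0 and 1 with the chow diet. Of 12 fibroblast genes, 6 had reads, 3, 5 and 5 with the HFD against 2, 1 and 2 with the chow diet. Of the 3 tested, 1 met the criteria, beside 4.46% of all host genes tested. The normalized reads of the fibroblast genes were 4.86 ± 1.08 and 1.48 ± 0.47 (SD, n = 3 per diet). Without the reads of 1 gene, Col3a1, the list had 7 reads with the HFD and 5 with the chow diet, and the diets overlapped. The gene that met them was Col3a1, a fibrillar collagen gene, with 0, 5 and 1 reads with the HFD against none with the chow diet (edgeR, adjusted p = 0.67). Col3a1 passed the filter only through HFD aortas, and also met the criteria when no filter was used. Its HFD mean lay below 3 reads, and it met the criteria in 4 of 11 alternative fits (adjusted p between 0.58 and 1.0), in none of those that left out a chow diet aorta. It was not tested without HFD replicate 2 or 3. Col1a1, another fibrillar collagen gene, had 1, 0 and 3 reads against 0, 0 and 1. Gsn, which encodes gelsolin, met the criteria only without chow diet replicate 2, with no reads on the HFD and 2, 0 and 1 with the chow diet. It too passed the filter through 1 diet alone, and chow diet replicate 2 is the chow diet aorta in which it had no read.

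Of 12 adipocyte genes, 5 had reads, 2, 2 and 5 with the HFD against 5, 7 and 6 with the chow diet, and edgeR called 0 of the 4 tested. Pparg, the transcription factor of fat cells that macrophages also use, had 0, 2 and 2 reads with the HFD against 3, 4 and 5 with the chow diet (log2 fold change -1.20, standard error 1.19, edgeR, adjusted p = 0.94). Of 11 receptor tyrosine phosphatases related to Ptprc, 6 had reads, 7, 6 and 1 with the HFD against 7, 1 and 8 with the chow diet, and edgeR called 0 of the 3 tested. Ptpra had 4, 3 and 0 reads with the HFD against 2, 0 and 0 with the chow diet, and Ptprm had 0, 2 and 1 against 3, 0 and 3. Ptprd had no reads with the HFD against 2, 1 and 3 with the chow diet (edgeR, adjusted p = 0.67). It met the criteria with limma and with a filter of reads in at least 3 aortas, which it passed only through the chow diet aortas. Besides Col3a1, 0 tested genes of these 4 lists had an unadjusted p under 0.05 in edgeR's test, and DESeq2 called 0.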
